A study of Homo sapiens with 2 samples.

Results

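WNT signalling genes were read in HCC4006ER cells and in the parental HCC4006 cells, a human non-small cell lung cancer line. The members were chosen by symbol. They are the WNT, Frizzled (FZD), SFRP, DKK and DVL families and a fixed set of co-receptors, turnover proteins, scaffolds and nuclear effectors, and the rule itself uses no measured value. Of 60 genes that fit this rule, 55 had a probe set (a group of array probes) that carried only their symbol, among 19775 such genes on the array. FZD8, PORCN, TCF7, WNT3 and WNT3A had none and were not analysed here.

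HCC4006ER is labelled erlotinib resistant with an EMT (epithelial-mesenchymal transition) phenotype. HCC4006 is labelled erlotinib sensitive, with a wildtype phenotype, and both carry the same label of an EGFR exon 19 deletion. Erlotinib is an inhibitor of the EGFR kinase, and HCC4006ER was selected from HCC4006 by long exposure to rising amounts of it, so it stands for 1 selection in 1 line. Both were grown for 48 hours in RPMI medium with serum and received no further treatment before RNA was taken. The RNA of 3 preparations per line was pooled and hybridised to 1 Affymetrix array. There is therefore no replicate, no test and no error between cultures, and every difference below is a difference between 2 arrays. The study also grew HCC4006ER cells with IWP2, which blocks WNT secretion, so the question here is which WNT genes these cells expressed and where the lines differed.

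The deposited values are MAS5 signals, linear intensities that the authors had scaled to the same trimmed mean, 500.1 on each array. Where a gene had several probe sets, the one brightest over both arrays (by mean log2 signal) stood for it. Genes of olfactory and bitter taste receptors were taken as mostly silent in these cells, which was not tested. They set a background level of 91.6 on the array labelled HCC4006ER and 96.2 on the array labelled HCC4006. A gene was called higher or lower past 1.5-fold, the threshold in the study's methods, after a signal under the background level had been raised to it. A fold against that level is given as "at least". Log2 folds are of HCC4006ER over HCC4006. Between probe sets of the same gene they had a pooled SD of 0.27 over 5264 genes, and of 0.27 over 12 members with 36 probe sets above background on both arrays, which leaves out APC, FZD5, SFRP1 and WNT5A. This SD measures disagreement between probe sets on the same arrays and is not a replicate error.

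The labels were checked against marker genes. Epithelial genes were bright on both arrays: 7 of 7 were above background on the array labelled HCC4006ER and 6 of 7 on the array labelled HCC4006, with summed signals of 79075 and 79808. Of 9 EMT genes checked, 6 were above background, with 3 higher, none lower and 3 within 1.5-fold. The higher ones were the mesenchymal genes CDH2, FN1 and VIM, at 2.05-fold, 1.66-fold and 1.53-fold higher on the array labelled HCC4006ER. The EMT transcription factor genes SNAI2, at 3556 and 3377, and TWIST1, at 871 and 726, were within 1.5-fold. Against the EMT label, the epithelial cadherin gene CDH1 read 11041 on the array labelled HCC4006ER and 10469 on the array labelled HCC4006. The EMT transcription factor gene ZEB1 read 53.1 and 42.5, below background on both. So did SNAI1, at 67.1 and 12.9, and ZEB2, at 14.4 and 21.1. Of 5 lung adenocarcinoma markers, 2 were above background on each array. The surfactant gene SFTPC was above it on both, at 346 and 261, and the lineage factor NKX2-1 on neither, at 7.98 and 65.4. Of 10 fibroblast markers, 1 was above background on the array labelled HCC4006ER and 2 on the array labelled HCC4006, with summed signals of 1223 and 1074, most of it from COL1A1, at 965 and 591 (1.63-fold higher). The others, LUM, DCN and COL3A1 among them, were below background on both arrays, except THY1 at 125 on the array labelled HCC4006. The arrays are called by their labels throughout. These markers did not settle whether the array labelled HCC4006ER shows the labelled EMT phenotype. Each fold below is a difference between arrays as labelled. In bulk RNA, fewer cells that express a gene and less RNA per cell cannot be told apart.

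WNT proteins are secreted, lipid-modified ligands that bind Frizzled receptors. With the co-receptors LRP5 and LRP6, they recruit Dishevelled (DVL) proteins and stop a complex of AXIN, APC and GSK3B from marking beta-catenin for destruction, so that beta-catenin enters the nucleus and acts with TCF and LEF factors. Other ligands, WNT5A among them, act mostly without beta-catenin through receptors such as ROR1, ROR2 and RYK and govern cell polarity and movement. SFRP and WIF1 proteins bind the ligands and DKK1 binds LRP5 and LRP6, while in the lung the pathway is known for its part in airway and alveolar development and repair.

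Of the 55 measured members, 32 were above background on at least 1 array, 30 of them on both. WNT5B, DKK3, WNT10A, FZD7 and LRP6 were higher past 1.5-fold on the array labelled HCC4006ER. SFRP1, WNT5A, FZD1 and APC were lower, and the other 23 were within 1.5-fold. The 5 higher members were 15.6% of the 32, beside 7.99% of 11896 genes above background. The 4 lower members were 12.5%, beside 11.2% of those genes, and both directions together gave 28.1% of members and 19.1% of genes. When both arrays were scaled to 1 median instead, the split over all genes turned round, to 12.4% higher and 7.4% lower, with 6 members higher and 4 lower. Past 2-fold, 3 of the 32 members were higher, beside 2.38% of genes, and 3 of the 32 were lower, beside 3.56%, with 5.94% of genes in either direction. The median log2 fold of the 32 members was -0.20, with quartiles of -0.33 and 0.33, beside a median of -0.04 and quartiles of -0.34 and 0.23 over all genes above background. The median size of the log2 fold, without its sign, was 0.33 over members and 0.28 over genes. With so few members, these shares describe the list and were not tested.

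**Figure D1:**
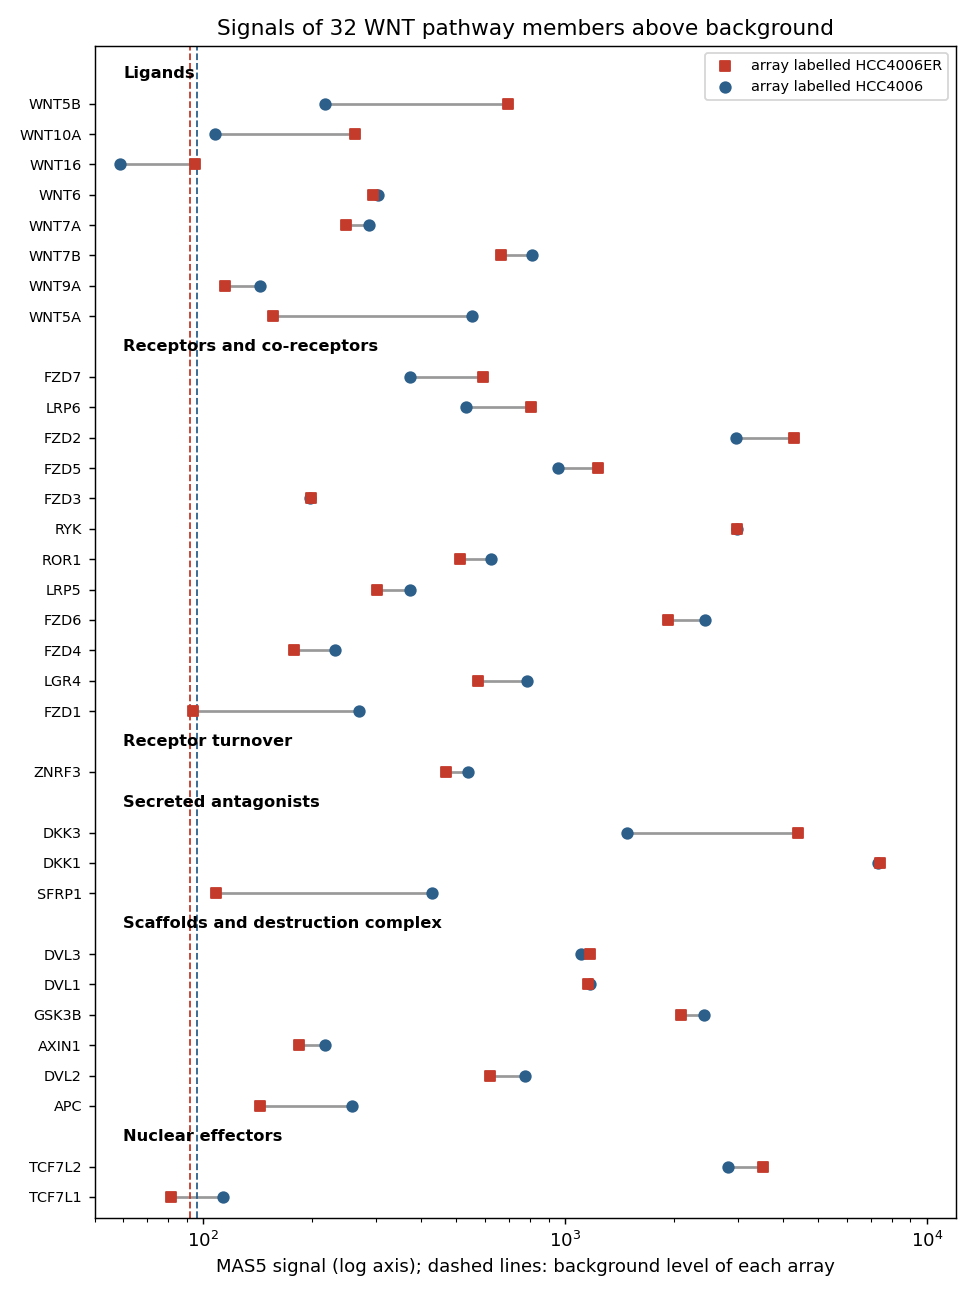
MAS5 signal (log axis) of the 32 members above background on at least 1 array, by role, with squares for the array labelled HCC4006ER and circles for the array labelled HCC4006; dashed lines mark background, at 91.6 and 96.2. WNT5B, WNT10A and DKK3 lie to the right on the array labelled HCC4006ER and WNT5A, FZD1 and SFRP1 to the left, while most other pairs lie close together.

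Among 17 ligands, 8 were above background, with 2 higher, 1 lower and 5 within 1.5-fold. WNT5B and WNT5A, 2 closely related ligands, differed in opposite directions. WNT5B read 694 on the array labelled HCC4006ER and 217 on the array labelled HCC4006, 3.20-fold higher (log2 fold 1.68). Its other probe set above background read 222 and 101, a log2 fold of 1.14. Both therefore lay on the same side, although both are of a kind whose probes can match several transcripts. WNT5A, known for polarity and migration signalling, read 156 on the array labelled HCC4006ER and 552 on the array labelled HCC4006. This was 3.55-fold lower (log2 fold -1.83), and its other probe set, at 45.4 and 160, gave a measured log2 fold of -1.82 with the HCC4006ER signal below background.

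The promoters of this pair are shown because they are the 2 ligand genes with the largest differences and lie on opposite sides. Each line gives 300 bases from RefSeq (build GRCh38.p14), 5′ to 3′ on the gene's strand, covering 250 bases before the annotated start to 50 after it. Capitals mark CACCTG, the E-box letters that EMT repressors of the ZEB and SNAI families are known to bind.
WNT5A, chr3:55487257-55487556, minus strand: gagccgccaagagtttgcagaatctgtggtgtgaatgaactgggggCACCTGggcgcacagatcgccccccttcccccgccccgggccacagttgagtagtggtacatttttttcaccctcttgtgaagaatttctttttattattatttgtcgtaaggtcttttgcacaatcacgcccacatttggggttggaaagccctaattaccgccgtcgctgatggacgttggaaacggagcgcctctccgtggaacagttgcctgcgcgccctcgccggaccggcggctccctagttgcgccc
WNT5B, chr12:1616806-1617105, plus strand: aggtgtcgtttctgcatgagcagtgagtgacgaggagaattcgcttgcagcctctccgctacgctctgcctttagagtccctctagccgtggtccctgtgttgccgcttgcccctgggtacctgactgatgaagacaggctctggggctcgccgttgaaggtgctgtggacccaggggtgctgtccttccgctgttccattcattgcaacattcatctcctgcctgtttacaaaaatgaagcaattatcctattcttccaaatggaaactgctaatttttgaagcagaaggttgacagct
The WNT5A window holds CACCTG 1 time, starting 204 bases before the start, and the WNT5B window holds it on neither strand. Each gene has a second RefSeq start, at chr3:55481349-55481648 and chr12:1628981-1629280, and neither of those windows holds it. On either strand, CACCTG stood in 20.6% of 35116 RefSeq promoter windows and in 15.6% of the 45 windows of 38 measured members. AXIN1, FZD5, SFRP5, WNT2B, WNT7A and WNT9B were the other members with it. A match is a run of letters and says nothing about binding in these cells. Of the factor genes, ZEB1, ZEB2 and SNAI1 were below background on both arrays. SNAI2 read 3556 on the array labelled HCC4006ER and 3377 on the array labelled HCC4006. Regulation by these factors was not tested.

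WNT10A, a ligand that acts through beta-catenin, read 262 on the array labelled HCC4006ER and 108 on the array labelled HCC4006, 2.43-fold higher (log2 fold 1.28). Its HCC4006 signal was only a little over the background level, and its other probe set was below background on both arrays, at 5.80 and 3.49. WNT7B and WNT7A, a pair of ligands of epithelia, were within 1.5-fold. WNT7B read 664 on the array labelled HCC4006ER and 808 on the array labelled HCC4006, and WNT7A read 249 and 286. A further probe set of WNT7B, at 205 and 199, gave a log2 fold of 0.04, beside -0.28 for the brighter one. WNT6 differed little, at 295 and 304, and WNT9A read 115 and 144. WNT16 was above background only on the array labelled HCC4006ER, at 94.5 against 58.7, and had no fold over 1 against the background level. The 9 remaining ligands, WNT1, WNT2, WNT2B, WNT4, WNT8A, WNT8B, WNT9B, WNT10B and WNT11, were below background on both arrays.

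Among 16 receptors and co-receptors, 12 were above background, with 2 higher, 1 lower and 9 within 1.5-fold. Frizzleds gave 1 higher gene, 1 lower gene and 5 within 1.5-fold, of 9 measured and 7 above background. FZD7 read 591 on the array labelled HCC4006ER and 372 on the array labelled HCC4006, 1.59-fold higher (log2 fold 0.67). A further probe set read 564 and 324, a log2 fold of 0.80, so that both of its probe sets were past the threshold. FZD1 read 93.4 on the array labelled HCC4006ER and 268 on the array labelled HCC4006, 2.87-fold lower (log2 fold -1.52). The HCC4006ER signal was barely over its background level, and the other probe sets of FZD1 were below background on both arrays.

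FZD2, a close relative of both FZD1 and FZD7, was well above background in both lines. It read 4293 on the array labelled HCC4006ER and 2972 on the array labelled HCC4006. The 1.44-fold difference placed it just under the threshold, while its other probe set, at 724 and 419, gave a larger log2 fold of 0.79. FZD5 read 1234 on the array labelled HCC4006ER and 954 on the array labelled HCC4006, a log2 fold of 0.37. Its other probe set was above background only on the array labelled HCC4006ER, at 149 against 40.6. FZD6 and FZD4 lay on the other side of 0, at 1928 and 2433 for FZD6 and 179 and 231 for FZD4, both within 1.5-fold. FZD3, like FZD6 a receptor of the polarity branch, read 198 and 197. FZD9 and FZD10 were below background on both arrays.

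The co-receptors LRP5 and LRP6, which pair with Frizzleds in the beta-catenin branch, lay on opposite sides. LRP6 read 805 on the array labelled HCC4006ER and 531 on the array labelled HCC4006, 1.52-fold higher (log2 fold 0.60). Of the members past the threshold, it was the nearest to it. Its other probe sets, at 187 and 182 and at 138 and 118, gave log2 folds of 0.04 and 0.22, and the mean over its probe sets, 0.29, was not past the threshold. LRP5 read 301 on the array labelled HCC4006ER and 372 on the array labelled HCC4006, a log2 fold of -0.31. The WNT5A receptors differed less than WNT5A did. ROR1, a receptor tyrosine kinase-like protein, read 511 on the array labelled HCC4006ER and 626 on the array labelled HCC4006, and its 3 probe sets gave log2 folds of -0.29, -0.26 and 0.34. RYK read 2983 and 2982, and ROR2 was below background on both arrays. LGR4, a receptor for R-spondins that protects Frizzleds from removal, read 574 on the array labelled HCC4006ER and 783 on the array labelled HCC4006. It was 1.37-fold lower and so within 1.5-fold. LGR5, its stem cell relative, was below background. Of the ubiquitin ligases that remove Frizzleds, ZNRF3 read 469 on the array labelled HCC4006ER and 540 on the array labelled HCC4006, while RNF43 was below background at 48.6 and 64.8.

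**Figure D2:**
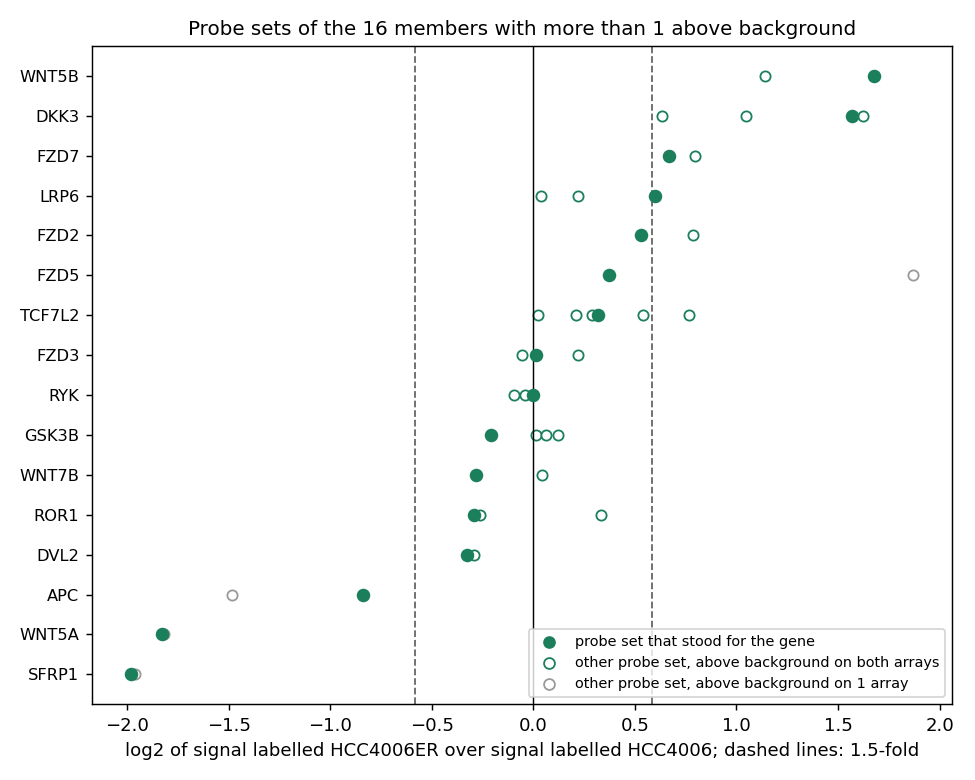
Log2 fold, HCC4006ER over HCC4006, of each probe set above background for the 16 members with more than 1 such probe set. Filled points stood for the gene, open points are its other probe sets (grey where above background on only 1 array), and dashed lines mark 1.5-fold. For WNT5B, DKK3 and FZD7 the probe sets above background all lie above 0 and for WNT5A and SFRP1 all lie below, while LRP6 has only 1 of 3 past the threshold.

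The 9 secreted antagonists had 3 above background, of which 1 was higher, 1 lower and 1 within 1.5-fold. SFRP1, a Frizzled-related protein that binds WNT ligands, read 108 on the array labelled HCC4006ER and 428 on the array labelled HCC4006, 3.95-fold lower (log2 fold -1.98). Another probe set of SFRP1 read 52.2 and 203, a measured log2 fold of -1.96 with the HCC4006ER signal below background. DKK3, a divergent DKK member without a settled role at LRP5 and LRP6, read 4409 on the array labelled HCC4006ER and 1486 on the array labelled HCC4006. It was 2.97-fold higher (log2 fold 1.57), and the 3 other probe sets above background gave log2 folds of 1.62, 0.63 and 1.05. All 4 were past the threshold. DKK1, the classical blocker of LRP5 and LRP6, read 7443 on the array labelled HCC4006ER and 7331 on the array labelled HCC4006, a log2 fold of 0.02. DKK2, DKK4, SFRP2, SFRP4, SFRP5 and WIF1 were below background on both arrays.

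DKK1 is itself a known target of beta-catenin. Its promoter is shown because its window was the only one with the letters CTTTGA among the 38 of 55 measured members that had a window. TCF and LEF factors are known to bind these letters. Only this run was searched, and other runs, such as the unmarked CTTTGT in the window below, were not counted. Capitals mark CTTTGA on either strand.
DKK1, chr10:52314031-52314330, plus strand: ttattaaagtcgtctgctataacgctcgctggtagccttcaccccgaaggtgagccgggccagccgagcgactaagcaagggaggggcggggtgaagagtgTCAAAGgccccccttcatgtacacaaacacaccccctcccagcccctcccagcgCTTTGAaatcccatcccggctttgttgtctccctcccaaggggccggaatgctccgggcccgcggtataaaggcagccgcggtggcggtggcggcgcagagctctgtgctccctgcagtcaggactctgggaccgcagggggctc
They start 149 bases before the start, as the reverse complement TCAAAG, and 95 bases before it, as written. CTTTGA stood in 12.9% of all promoter windows and in 2.22% of the members' windows, and the match was not tested for use in these cells.

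Inside the cell, the 8 scaffold and destruction complex genes had 6 above background, with none higher, 1 lower and 5 within 1.5-fold. APC, the scaffold on which beta-catenin is marked, read 144 on the array labelled HCC4006ER and 257 on the array labelled HCC4006, 1.79-fold lower (log2 fold -0.84). Another probe set, at 42.3 and 119, had only the HCC4006 signal above background. GSK3B, the kinase of the complex, read 2089 on the array labelled HCC4006ER and 2418 on the array labelled HCC4006, and its other 3 probe sets gave log2 folds of 0.01, 0.06 and 0.12. AXIN1, the scaffold of the complex, read 184 and 217. The Dishevelled genes stayed close together. DVL1 read 1155 on the array labelled HCC4006ER and 1168 on the array labelled HCC4006, DVL2 read 618 and 776, and DVL3 read 1173 and 1104.

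Of 3 nuclear effectors, TCF7L2 and TCF7L1 were above background, both within 1.5-fold. TCF7L2, the beta-catenin partner above background in both lines, read 3523 on the array labelled HCC4006ER and 2823 on the array labelled HCC4006, and its 6 probe sets above background gave log2 folds of 0.03 to 0.77, all above 0. TCF7L1, which mostly represses targets, read 81.4 on the array labelled HCC4006ER, below background, and 113 on the array labelled HCC4006, at least 1.24-fold lower. LEF1 was below background with all 3 of its probe sets. AXIN2, NKD1, LEF1, LGR5 and RNF43, which beta-catenin signalling is known to induce, were below background on both arrays, while DKK1 and ZNRF3, known targets as well, were above it on both. AXIN2, a target often used as a readout, had 4 probe sets between 7.82 and 34.6 on the array labelled HCC4006ER and between 10.3 and 28.1 on the array labelled HCC4006. NKD1, an inhibitor of Dishevelled, had 3 between 14.4 and 37.2 and between 19.4 and 74.1. At this level no difference in AXIN2, NKD1, LEF1, LGR5 or RNF43 was measurable. The 23 members below background on both arrays had signals of 1.37 to 53.1 with a median of 17.8 on the array labelled HCC4006ER, and of 3.95 to 74.1 with a median of 25.5 on the array labelled HCC4006.

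**Figure D3:**
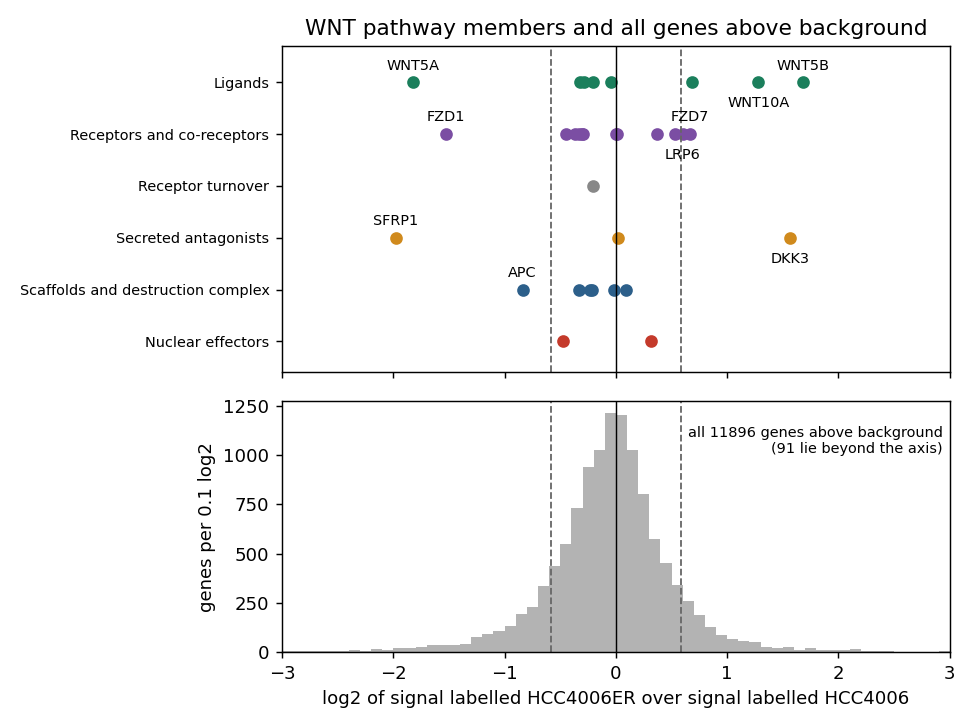
Log2 fold, HCC4006ER over HCC4006, of each member above background by role (upper panel), and the number of genes per 0.1 log2 among all 11896 above background (lower panel, where 91 lie beyond the axis); dashed lines mark 1.5-fold. The 32 members have a median of -0.20 beside -0.04 for all genes; WNT16 lies past the line by its measured ratio but was not called because its HCC4006 signal was below background.

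The rest of the pathway was read from lists of secretion, destruction complex, nuclear and polarity genes. Of 55 measured, 38 were above background, with 3 higher, 5 lower and 30 within 1.5-fold. These were 7.89% and 13.2% of the 38, near the 7.99% and 11.2% over all genes. CTNNB1, which encodes beta-catenin, read 2399 on the array labelled HCC4006ER and 3253 on the array labelled HCC4006, a log2 fold of -0.44. WLS, the carrier that brings WNT ligands to the cell surface, read 2612 and 2343. Among beta-catenin's partners, BCL9, a co-activator, was 2.03-fold lower at 192 and 389, and TLE4, a co-repressor of TCF factors, was 1.73-fold higher at 330 and 191, though the mean over the probe sets of TLE4, a log2 fold of 0.48, was not past the threshold. KREMEN2, a receptor for DKK1, read 64.2 on the array labelled HCC4006ER and 173 on the array labelled HCC4006, at least 1.88-fold lower. BTRC, the ubiquitin ligase subunit that recognises marked beta-catenin, read 443 and 287, 1.54-fold higher. That direction depended on the probe sets: the log2 fold was -0.69 for the mean over all of them, and 0.41 for the mean over those above background.

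Of 11 planar polarity genes above background, PRICKLE2, CELSR2 and SCRIB were lower and INVS was higher, among the 38 counted above. The shares were 27.3% lower and 9.09% higher, beside 11.2% and 7.99% of all genes, in a list of only 11 genes. PRICKLE2, a cytoplasmic polarity protein, read 94.6 on the array labelled HCC4006ER and 312 on the array labelled HCC4006, 3.30-fold lower. CELSR2, a polarity cadherin, was 1.75-fold lower at 237 and 414, and the scaffold gene SCRIB was 1.62-fold lower at 714 and 1153. INVS, which encodes inversin, a Dishevelled partner, was 1.51-fold higher at 560 and 370, barely past the threshold. Of 19 measured genes known as beta-catenin targets, 11 were above background, with 1 higher, 3 lower and 7 within 1.5-fold. The shares were 9.09% higher and 27.3% lower of only 11 genes, beside 7.99% of all genes higher and 11.2% lower. TNFRSF19, a receptor of the TNF family, read 392 on the array labelled HCC4006ER and 77.8 on the array labelled HCC4006, at least 4.08-fold higher. MMP7, a matrix protease, was 2.17-fold lower at 377 and 820, ID2, an inhibitor of helix-loop-helix factors, 1.71-fold lower at 1564 and 2677, and EPHB3, an ephrin receptor, 1.64-fold lower at 158 and 258. Many of these targets answer to other pathways too. With both arrays scaled to 1 median, EPHB3 and SCRIB, at log2 folds of -0.58 and -0.56, were no longer past the threshold. Of all pathway and target genes outside the members, 9 were then higher and 6 lower, where more had been lower before. Over all genes, 12.4% were then higher and 7.4% lower.

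**Figure D4:**
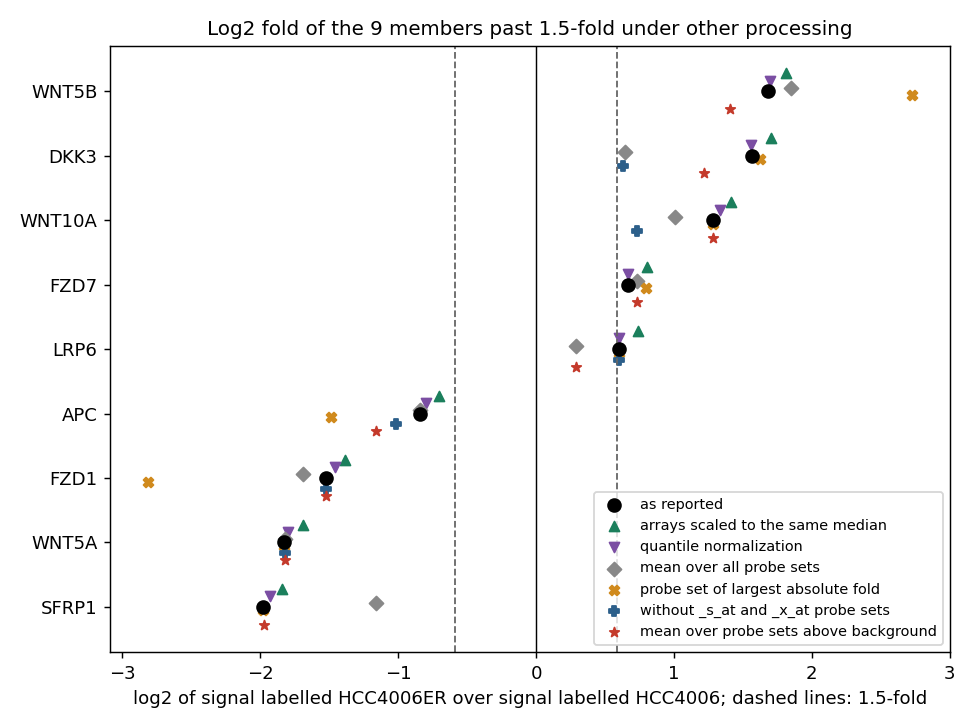
Log2 fold, HCC4006ER over HCC4006, of the 9 members past 1.5-fold as reported (black) and under the 6 alternatives that change the scaling or the probe sets; dashed lines mark 1.5-fold. Missing symbols are genes left without a probe set. WNT5A stays between -1.83 and -1.69 and DKK3 between 0.63 and 1.71, whereas LRP6 reaches down to 0.29.

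The members past 1.5-fold differed in how much they depended on how a gene was read. Over 13 alternatives, WNT5A and DKK3 kept their call in all 13. WNT5B, WNT10A, FZD7, FZD1 and SFRP1 kept it in 11 each, LRP6 in 10 and APC in 8. These counts include alternatives that could not lose a call, because all 9 members were above background on both arrays. Such alternatives were a lower background percentile, both arrays required above background, the measured ratio and no filter on dim signals. Calls kept under them give no support. Of the 15 lost calls, 8 had signals below background on both arrays, and 2 of APC had a fold that fell short only once the dim signal was raised to background. The fold itself was under the threshold in 5, which were LRP6 with 2 ways of averaging its probe sets and LRP6, FZD7 and APC at 2-fold. In 3 further cases no probe set was left. Median scaling of the arrays added 0.14 to each log2 fold, kept all 9 and added FZD2, and turned DVL1 and WNT6 to the other side of 0.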

How the data were processed

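RNA of HCC4006ER and HCC4006 cells was measured on 1 HG-U133 Plus 2 array each, from 3 pooled preparations. The authors deposited linear signal intensities made with MAS5 (GCOS 1.4 per the submitters' notes) for 54675 probe sets, without detection calls, scaled to 1 trimmed mean. MAS5 subtracts local background, so dim values are noisy and their ratios can be large. Symbols came from the platform annotation: 41097 probe sets had 1 symbol and were used, 1801 had several and 11777 were not listed. Of those used, 41043 matched RefSeq (GRCh38.p14) by gene identifier.

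One probe set per gene was kept, the brightest by mean log2 signal. The background level was the 95th percentile of 127 probe sets for olfactory or bitter taste receptors, from which receptor pseudogenes were dropped after their values were seen. With 1 array per line no p-value was computed. Counts of members past 1.5-fold were set beside those over all genes above background. Every member could be named, and from the other lists CTNNB1, WLS and genes past 1.5-fold. The members and lists were chosen with earlier results of these data known. The calculation was tested on simulated arrays, with differences well past 1.5-fold planted only in genes well above background. It did not test whether differences near background or near 1.5-fold are found. Alternatives changed the scaling, probe set, background and threshold. Some results are not reported here. Python 3.11.15, numpy 2.4.6, pandas 2.3.3 and scipy 1.17.1 were used.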

Additional observations from a re-analysis of the deposited data

How the results depend on the processing

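Of the 9 members past 1.5-fold, median scaling and quantile normalization kept all 9. All 9 were above background on both arrays. For that reason some alternatives could not lose any of them and give no support. These were a background at the 90th percentile, both arrays required above background, the measured ratio and no filter on dim signals. Leaving out probe sets whose probes match several transcripts gave 3 higher and 2 lower of 23 members above background, beside 8.75% and 11.1% of all genes. APC and WNT10A were then below background on both arrays, with log2 folds of -1.02 and 0.73, and FZD7, SFRP1 and WNT5B had no probe set. Without a filter on dim signals there were 12 higher and 13 lower members of 55, beside 13% and 23% of all genes. With a 2-fold threshold 3 of 32 were higher and 3 lower, beside 2.38% and 3.56% of all genes. The mean over all probe sets left only 23 members above background, with 5 higher and 1 lower, beside 8.03% and 10.6% of all genes. APC, FZD1 and SFRP1 were below it, with log2 folds of -0.84, -1.69 and -1.16. The probe set with the largest fold left 22 members above background, with 7 higher and 2 lower, beside 12.8% and 15.5% of all genes. FZD1, at -2.81, and WNT5B, at 2.72, were below it, and APC, at -1.49, was under 1.5-fold once its dim signal was raised. Among other pathway and target genes, 12 past the threshold became 24 without the filter. Of these, 8 were higher and 16 lower, beside 13% and 23% of all genes. At 2-fold they became 4, with 1 higher and 3 lower, beside 2.38% and 3.56% of all genes. BTRC turned to log2 folds of -0.69 with the mean over its probe sets and -3.82 with the probe set of the largest fold, but was 0.41 over those above background and 0.40 without probe sets that match several transcripts. The cause was not tested. The members' median log2 fold stayed below 0 throughout, from -0.21 to -0.02, but was not always below the median over all genes. With the mean over all probe sets it was -0.023 beside -0.029 over all genes. With the probe set of the largest fold it was -0.057 beside -0.063. In the other alternatives the members' median was the lower one, as with median scaling, at -0.07 beside 0.10. Alternatives added later, a background with pseudogenes and a mean over probe sets above background, were chosen after seeing the data. They kept 9 and 8 members. No paired analysis was possible because each line had 1 array. With so few arrays the precision of each value is unknown, and signals near background limit FZD1, WNT10A and SFRP1.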
